A study of Mus musculus with 5 samples.

Results

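The ErbB receptors and their ligands were followed as 10 genes in bulk RNA-seq libraries of luminal cells sorted from the mouse mammary gland, the epithelium that lines the lumen of its ducts and alveoli. The genes were chosen by name, 4 receptors (*Egfr*, *Erbb2*, *Erbb3* and *Erbb4*) and 6 ligands (*Egf*, *Tgfa*, *Areg*, *Btc*, *Ereg* and *Nrg1*), and all 10 were found among the 24319 genes of the deposited table. ErbB receptors are receptor tyrosine kinases that work as pairs. EGFR binds EGF, TGFA and amphiregulin, ERBB3 and ERBB4 bind neuregulins, betacellulin and epiregulin bind both EGFR and ERBB4, ERBB2 binds no ligand known to activate it, and ERBB3 has little kinase activity of its own and signals through its partner. In the mammary gland, amphiregulin made by hormone-sensing luminal cells carries the estrogen signal to neighbouring cells through EGFR during ductal growth, and ERBB4 acts with STAT5 in lobuloalveolar development and lactation.

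There were 5 libraries. By their labels, replicates 1, 2 and 3 had the genotype wild type and the other two, replicates 4 and 5, *Brca1* knockout, all of a strain entered as Mixed and with mammary tissue as the source. The study's methods describe *Brca1* fl/fl mice in which *MMTV-Cre* deletes the gene in mammary epithelium, and live cells sorted as CD24 high and CD29 low after depletion of blood and endothelial cells. They give young adult females, virgin or at mid-pregnancy, without saying which library came from which state, and the paper calls the luminal cells BRCA1-deficient where the labels say wild type for 3 of 5 libraries. The libraries are therefore named here by their labels. Nothing in the labels says that they came from separate animals, so p-values measure the spread between these libraries. The digestion medium held added EGF protein, in all libraries alike as far as the methods say.

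Values were FPKM, fragments scaled to transcript length and to the mapped fragments of the library, so that levels of different genes can be compared per length. Differences were taken on log2(FPKM + 1), which understates the change of low genes. Read totals are not in the table. From the spacing of low values, relative depth was estimated as 1.00, 2.06 and 4.88 in replicates 1, 2 and 3 and 1.01 and 3.38 in replicates 4 and 5.

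The luminal identity was clear in every library. *Krt8*, a luminal keratin, was at 2483, 2240.2 and 3653 FPKM in replicates 1, 2 and 3 and at 2421 and 2332 FPKM in replicates 4 and 5, and *Epcam*, an epithelial adhesion molecule, was between 569.6 and 1062 FPKM. The basal keratin *Krt14* was between 3.65 and 104 FPKM. *Brca1*, the targeted gene, was at 1.30, 1.32 and 0.234 FPKM under the wild type label and at 1.20 and 1.34 FPKM under the *Brca1* knockout label, so its level did not follow the labels (log2 difference 0.27, SE 0.38, limma adjusted p = 0.936 by the Benjamini-Hochberg method; -0.03 without replicate 3). A value for the whole gene does not show whether part of it was deleted, and directions between the labels rest on the labels alone.

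Replicate 3 stood apart from the other 4 libraries in gene groups outside the ErbB family. Of all genes tested, 18.5% were highest and 51.9% lowest in it. All 8 genes of the mature luminal list (hormone-sensing cell markers) were highest in it, with a summed level of 443 FPKM against 31.58 to 57.37 FPKM elsewhere. For *Tnfsf11* the lead over the next library was 1.08-fold. The prolactin receptor gene *Prlr* was the most abundant of these 8 genes in replicate 3 only, with 148 FPKM. Elsewhere its level was 6.17 FPKM (replicate 1), 8.14 FPKM (replicate 2), 5.61 FPKM (replicate 4) and 10.3 FPKM (replicate 5). All 8 proliferation genes were lowest in replicate 3, where they summed to 4.739 FPKM against 57.24 to 125 FPKM elsewhere, and the median log2 level of the alveolar and milk list was 9.23 there against 12.43 to 13.59. Of that list, *Lalba* (599 FPKM against 129.8 to 185) and *Btn1a1* (371 FPKM against 161 to 214) were instead highest in replicate 3. Values are given by library, and differences between the labels that replicate 3 decides are also given without it. In bulk RNA, fewer cells of a type and less RNA per cell cannot be told apart.

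The receptors had the same order of abundance in all 5 libraries, *Erbb3*, *Erbb2*, *Egfr* and then *Erbb4*. *Erbb3* (chromosome 10 of mm10, 128567523 to 128589652, minus strand), the neuregulin-binding receptor, was at 32.9, 44.5 and 24.3 FPKM in replicates 1, 2 and 3 and at 38.5 and 37.4 FPKM in replicates 4 and 5. Its mean of 5.16 ± 0.32 in log2(FPKM + 1) (SD, n = 5) was above that of 93.0% of all genes in the table. Replicate 3 was its lowest library and replicate 2 its highest, and the label groups overlapped.

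*Erbb2* (chromosome 11, 98412470 to 98437716, plus strand), the co-receptor of the family, was at 12.9, 11.0 and 14.2 FPKM under the wild type label and at 15.3 and 12.0 FPKM under the *Brca1* knockout label. Its level of 3.81 ± 0.18 (log2, SD, n = 5) was among the steadier ones, with an SD at or under it in 18.0% of all genes tested. *Erbb3* exceeded *Erbb2* in 5 of 5 libraries, by 1.35 ± 0.44 on the log2 scale (SD of the within-library difference).

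*Egfr* (chromosome 11, 16752203 to 16918158, plus strand), the receptor for most of the EGF-like ligands, was at 5.64, 8.95 and 8.02 FPKM under the wild type label and at 8.91 and 9.90 FPKM under the *Brca1* knockout label. Replicate 1 was lowest and the groups overlapped, since replicate 2 was above replicate 4. Its level was 3.20 ± 0.28 (log2, SD, n = 5).

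*Erbb4* (chromosome 1, 68032186 to 69108059, minus strand) was the least abundant receptor, at 1.26, 1.21 and 1.53 FPKM under the wild type label and at 2.97 and 2.77 FPKM under the *Brca1* knockout label. Both libraries with the knockout label were above all 3 with the wild type label, and the groups did not overlap. The log2 difference was 0.73 (SE 0.22), with an adjusted p of 0.924 (limma, Benjamini-Hochberg), so it did not pass the test over all genes; its exact permutation p was 0.2. Without replicate 3 it was 0.79 (adjusted p = 0.699 from limma), and under other scalings it was 0.65 to 0.72. Every library labelled *Brca1* knockout was above every library labelled wild type for 17.5% of all genes tested.

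As shares of the summed receptor level, *Erbb3* made up 62.4%, 67.8% and 50.5% in replicates 1, 2 and 3 and 58.6% and 60.2% in replicates 4 and 5. *Erbb2* made up 16.8% to 29.6% and *Egfr* 10.7% to 16.7%. *Erbb4* made up 1.85% to 3.19% under the wild type label and 4.52% and 4.46% under the *Brca1* knockout label. The sum itself was between 48.1 and 65.7 FPKM. *Erbb3* was the largest fraction in each library.

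**Figure D1:**
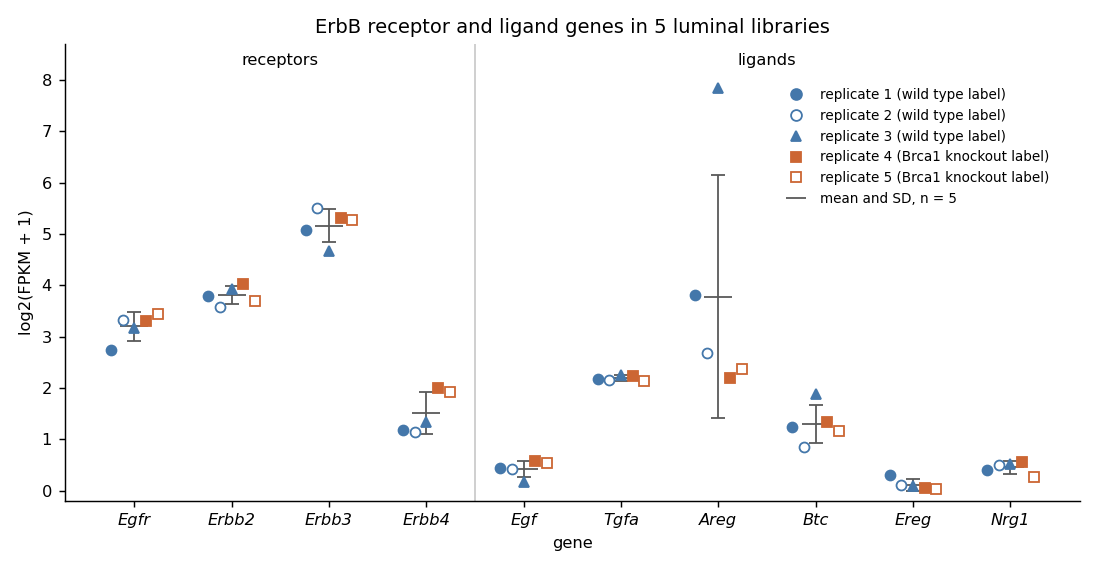
The plot shows log2(FPKM + 1) of the 10 genes in each library, with the mean and SD over 5 libraries in grey; circles and triangles are libraries labelled wild type and squares those labelled *Brca1* knockout. *Areg* spreads over the widest range, with replicate 3 (triangle) at 229 FPKM, while both squares of *Erbb4* lie above its other points.

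Among the ligands, *Areg* varied most and *Tgfa* least. *Areg* (chromosome 5, 91139599 to 91148432, plus strand), which encodes amphiregulin, was at 13.0, 5.42 and 229 FPKM in replicates 1, 2 and 3 and at 3.58 and 4.15 FPKM in replicates 4 and 5. Replicate 3 was 17.5-fold over the next highest library, and both libraries with the knockout label were below all 3 with the wild type label. Its SD of 2.36 on the log2 scale was matched or exceeded by 1.24% of all genes tested.

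The log2 difference of *Areg* between the labels was -2.50 (SE 1.52, limma adjusted p = 0.924 by the Benjamini-Hochberg method). Without replicate 3 it was -0.97 (adjusted p = 0.728 from limma), and both libraries with the knockout label were still below replicates 1 and 2. Every library labelled *Brca1* knockout was below every library labelled wild type for 5.77% of all genes tested, and for 15.2% without replicate 3.

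*Tgfa* (chromosome 6, 86195223 to 86275719, plus strand), an EGFR ligand, was the steadiest of the 10, at 3.50, 3.44 and 3.79 FPKM under the wild type label and at 3.72 and 3.37 FPKM under the *Brca1* knockout label. In the values as deposited, its highest was 1.13-fold its lowest, and only 0.462% of all genes tested had an SD as small. This steadiness depended on the scaling, since under median-of-ratios scaling *Tgfa* had a library apart from the others by Dixon's ratio, described below. The log2 difference between the labels was -0.01 (SE 0.19, adjusted p = 0.996 from limma). Its exons share 118 bases with *Gm43917* on the other strand.

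*Btc* (chromosome 5, 91357261 to 91402994, minus strand), which encodes betacellulin, was at 1.35, 0.808 and 2.66 FPKM under the wild type label and at 1.53 and 1.23 FPKM under the *Brca1* knockout label. It was highest in replicate 3 and lowest in replicate 2, with the groups overlapping.

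*Nrg1*, *Egf* and *Ereg* were under the mean of 1 FPKM that a gene needed for the limma test, so 7 of the 10 genes were tested and 3 were described only. *Nrg1* (chromosome 8, 31814551 to 32884029, minus strand), a ligand of ERBB3 and ERBB4, was at 0.315, 0.415 and 0.435 FPKM under the wild type label and at 0.469 and 0.208 FPKM under the *Brca1* knockout label. It was lowest in replicate 5 and highest in replicate 4, and it was below *Erbb3* in every library. Its exons share 482 bases with *Gm26578* on the other strand.

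*Egf* (chromosome 3, 129677565 to 129755316, minus strand) was at 0.362, 0.333 and 0.115 FPKM under the wild type label and at 0.489 and 0.444 FPKM under the *Brca1* knockout label. The groups did not overlap, with a log2 difference of 0.21, for which an exact permutation test (two-sided) gave p = 0.2, the lowest value this design can reach. Replicate 3 was lowest, and without it the difference was 0.12. The library kit did not mark strand, and *Egf* shares 607 exonic bases with the antisense gene *Gm42697* and 500 with *6330410L21Rik*, whose reads cannot be told apart from its own.

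*Ereg* (chromosome 5, 91074622 to 91093646, plus strand), which encodes epiregulin, was at 0.229, 0.0734 and 0.0586 FPKM under the wild type label and at 0.0377 and 0.0224 FPKM under the *Brca1* knockout label. By the estimated depths these stand for about 5.93, 3.92, 7.43, 0.986 and 1.96 fragments, so the non-overlap of its groups rests on very few fragments. Its exons share 141 bases with the antisense gene *Gm19610*.

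Of the 10 genes, 4 had label groups that did not overlap, *Erbb4* and *Egf* above and *Areg* and *Ereg* below under the *Brca1* knockout label, and these were the same 4 without replicate 3, where 23.9% of all genes tested were above and 15.2% below. Among the 7 tested, *Erbb4* was the 1 above, beside 17.5% of all genes, and *Areg* the 1 below, beside 5.77%. Under median-of-ratios scaling these shares were 12.6% and 9.43%, and 1 gene of 7 in either direction is not read as a result about the ErbB genes. limma called 0% of the 11481 genes tested, 0 in number, with 372 at an unadjusted p under 0.05. Among the 7, *Erbb4* was the only gene under that value.

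Ordered by mean level, the 10 genes ran *Erbb3*, *Erbb2*, *Areg*, *Egfr*, *Tgfa*, *Erbb4*, *Btc*, *Nrg1*, *Egf* and *Ereg*. Neighbours were compared within libraries by an exact sign-flip permutation test, which with 5 libraries cannot go below p = 0.062, so none of the 9 steps could pass 0.05. The steps from *Erbb3* to *Erbb2*, *Egfr* to *Tgfa*, *Tgfa* to *Erbb4*, *Btc* to *Nrg1* and *Egf* to *Ereg* held in 5 of 5 libraries, each at that smallest p (0.113 after Benjamini-Hochberg adjustment over the permutation tests). *Areg* did not differ beyond its spread from *Erbb2* (0.03 ± 2.31, log2) or from *Egfr* (0.58 ± 2.45), and its place rested on replicate 3, without which its mean was 2.76 against 3.20 for *Egfr*. *Erbb4* and *Btc* (0.22 ± 0.53) and *Nrg1* and *Egf* (0.02 ± 0.23) were not separated either.

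The ErbB family has 5 further ligand genes, and among them *Hbegf* was the largest. *Hbegf*, which encodes heparin-binding EGF-like growth factor, a ligand of EGFR and ERBB4, was at 13.4, 26.9 and 44.6 FPKM under the wild type label and at 16.7 and 39.4 FPKM under the *Brca1* knockout label. It was highest in replicate 3 and lowest in replicate 1, and the groups overlapped. *Epgn*, which encodes the EGFR ligand epigen, was at 1.99, 1.05 and 4.19 FPKM and at 1.68 and 1.66 FPKM. *Nrg4*, a neuregulin gene that shares 368 exonic bases with *Fbxo22* on the other strand, was at 1.13, 0.457 and 2.70 FPKM and at 1.12 and 0.558 FPKM. These genes too had their highest values in replicate 3. *Nrg2* was between 0.0548 and 0.622 FPKM and *Nrg3* between 0.0199 and 0.0647 FPKM.

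Of the 11 ligand genes, 6 (*Tgfa*, *Areg*, *Btc*, *Hbegf*, *Epgn* and *Nrg4*) were highest in replicate 3, and the other 5, all under the filter on low values, were not. *Nrg4* passed that filter only through replicate 3. By comparison, 0 of the 4 receptors were highest in it, and of all genes tested 18.5% were highest and 51.9% lowest in it. The median difference of replicate 3 from the mean of the other 4 libraries over all genes tested was -0.27 on the log2 scale. The same 6 ligands were highest in it under median-of-ratios scaling (each library divided by the median ratio of its genes to their geometric means), quantile normalization and rescaling without the 10 most abundant genes, while 1 receptor was highest under each. The share of all genes highest in replicate 3 was then 31.0%, 25.6% and 21.9%. For *Tgfa* the lead as deposited was 1.02-fold, and for *Hbegf* 1.13-fold.

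Beside this, the mature luminal list, described above, was highest in replicate 3 in 8 of 8 genes. Fibroblast markers (7 genes, *Dcn* the most abundant in replicate 3 only) summed to 3.310, 112 and 92.11 FPKM in replicates 1, 2 and 3 and to 4.272 and 12.91 FPKM in replicates 4 and 5. Immune markers (7 genes, *Cd74* the most abundant, *Cd3e* at 0 in some library) summed to 30.17, 957 and 256 FPKM and to 30.74 and 473 FPKM. *Cd74* made up 465 FPKM of the sum in replicate 5, and the median log2 level of the immune list was 0.74, 3.97 and 3.12 and then 0.34 and 0.58. The part of mature luminal, fibroblast or immune cells in the ligand levels was not tested.

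The ligand repertoire, as shares of the summed level of all 11 ligand genes, was dominated by *Areg* and *Hbegf*. *Areg* made up 36.8%, 13.9% and 79.5% in replicates 1, 2 and 3 and 11.9% and 8.09% in replicates 4 and 5. *Hbegf* made up 37.7%, 69.0% and 15.5% in the former and 55.6% and 76.8% in the latter. *Hbegf* was thus ahead of *Areg* in 4 of the 5 libraries, by little in replicate 1, and *Areg* was ahead in replicate 3. *Tgfa* made up 1.32% to 12.4%. The summed ligand level was 35.5, 38.9 and 288 FPKM under the wild type label and 30.0 and 51.3 FPKM under the *Brca1* knockout label.

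**Figure D2:**
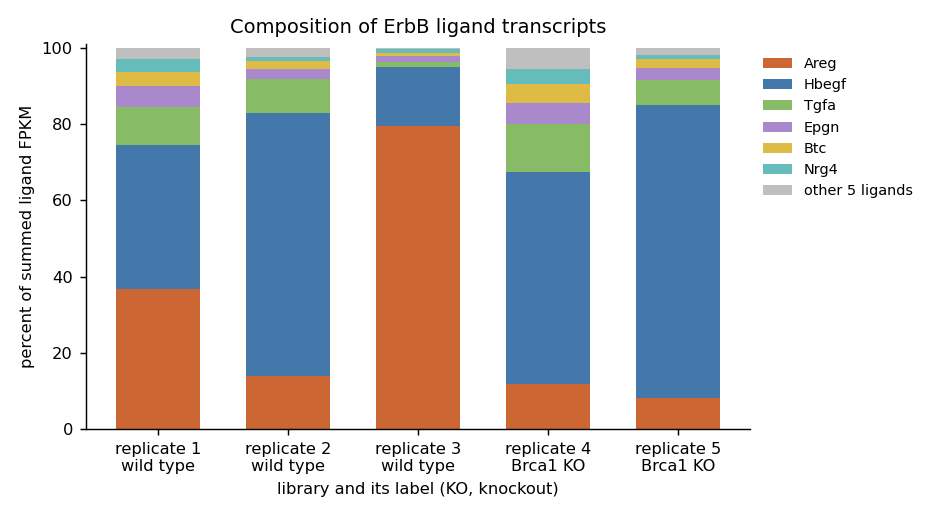
Stacked bars give the percent of the summed FPKM of 11 ErbB ligand genes in each library, with the 5 lowest ligands joined in grey. *Areg* takes 79.5% in replicate 3, and *Hbegf* takes the most in the other libraries.

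*Areg* was the only one of the 10 genes with an SD of at least 1 on the log2 scale, and the genes most like it over the 5 libraries were sought among all genes tested. Likeness was the root mean square difference between centred log2 values, as a description with no test. The closest was *Fgg*, the fibrinogen gamma chain gene (0.27), at 1.13, 0.324 and 43.6 FPKM under the wild type label and at 0.225 and 0.199 FPKM under the *Brca1* knockout label. *Gipc2* (0.38) reached 35.5 FPKM in replicate 3 and was at most 0.845 FPKM elsewhere. *Cd200* (0.38), which encodes a surface glycoprotein, was at 72.9 FPKM in replicate 3 and at most 2.10 FPKM elsewhere. Being chosen for likeness to *Areg*, all 3 had replicate 3 as their high library, and *Fgg* and *Gipc2* passed the filter on low values only through it.

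Of the 10 genes, 3 lie together on chromosome 5 with *Epgn*, in the order *Epgn* (91027464 to 91035215), *Ereg*, *Areg* and *Btc*, where *Btc* runs on the minus strand and its start lies 263.395 kb from that of *Areg*. The 14 protein-coding genes, *Areg* included, that are within 500 kb of its start were compared. *Epgn*, *Areg* and *Btc* were all highest in replicate 3, while *Ereg*, between *Epgn* and *Areg*, was highest in replicate 1. Beyond the ligands, *Parm1* was at 2.86, 2.82 and 10.9 FPKM in replicates 1, 2 and 3 and at 3.87 and 4.54 FPKM in replicates 4 and 5. The chemokine gene *Cxcl15*, whose start is at -345.065 kb, was at 0.700, 1.08 and 89.2 FPKM and at 0.284 and 0.417 FPKM. Between them, the neutrophil chemokine gene *Cxcl1* was at 47.8 FPKM in replicate 3, its lowest value, and *Cxcl2* at 20.6 FPKM in replicate 3 and 160.3 FPKM in replicate 2. The genes of the region therefore did not share a single pattern.

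**Figure D3:**
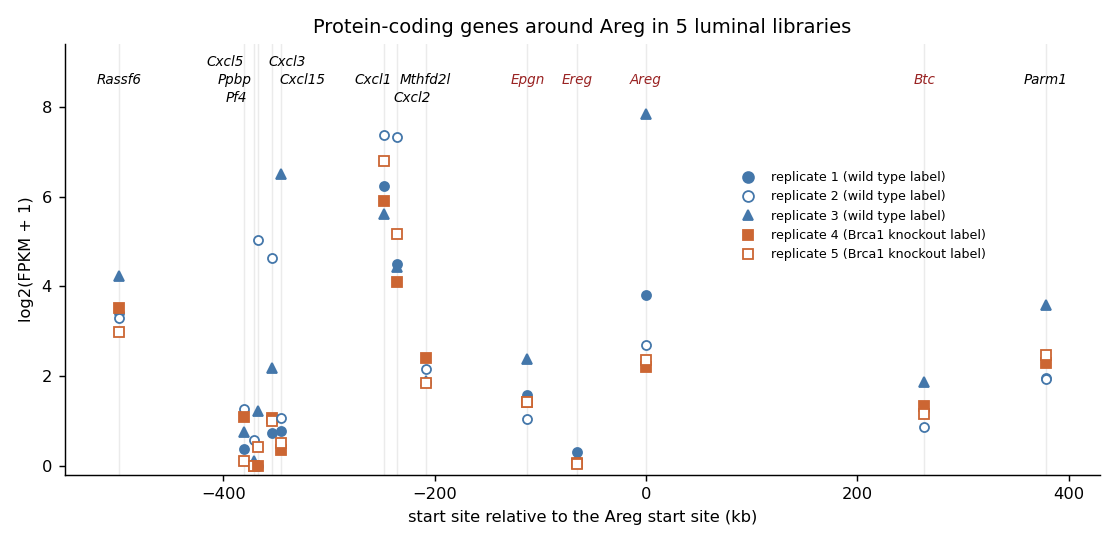
Each point is log2(FPKM + 1) of a gene in a library, placed by the distance of its start site from that of *Areg* in kb; ErbB ligand genes are named in red. Replicate 3 (triangles) is far above the other libraries at *Areg* and *Cxcl15*, and below all others at *Cxcl1*.

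The promoters of *Areg* and *Btc* are shown because these ligand genes of the cluster differed so much in level and spread. They are the 250 bases before the RefSeq start (GRCm38.p6, the mm10 assembly), 5′ to 3′ on the gene's strand, for *Areg* at chr5:91139349-91139598 (plus) and *Btc* at chr5:91402995-91403244 (minus). Capitals mark matches, on either strand, to the cyclic AMP response element TGACGTCA, the TATA box TATAAA, the estrogen response element GGTCANNNTGACC or its 5-letter part GGTCA, and the progesterone receptor motif part TGTTCT. No marked matches overlap.
Areg: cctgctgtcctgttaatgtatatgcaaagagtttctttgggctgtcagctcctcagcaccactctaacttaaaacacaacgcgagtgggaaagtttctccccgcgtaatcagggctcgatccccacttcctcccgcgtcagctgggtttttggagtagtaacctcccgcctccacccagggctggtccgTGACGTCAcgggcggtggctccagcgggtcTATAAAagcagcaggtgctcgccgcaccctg
Btc: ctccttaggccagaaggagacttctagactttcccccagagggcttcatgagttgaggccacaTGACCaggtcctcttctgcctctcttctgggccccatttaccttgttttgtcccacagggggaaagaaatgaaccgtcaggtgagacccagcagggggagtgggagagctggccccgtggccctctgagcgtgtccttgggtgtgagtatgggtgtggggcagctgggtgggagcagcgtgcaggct

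The *Areg* promoter held TGACGTCA starting at base -61 from the gene's start and TATAAA at -31. Of 32851 mouse promoter windows of the same length, 1.55% held TGACGTCA and 12.4% held TATAAA. The *Btc* promoter held TGACC, the reverse complement of GGTCA, at -187. GGTCA in either direction was found in 35.2% of the windows, TGTTCT in 16.1% and the whole estrogen response element in 0.0639%, and the latter pair was in neither promoter. Promoters were at hand for 7 of the 10 genes (*Egfr*, *Erbb2*, *Erbb4*, *Egf*, *Tgfa*, *Areg* and *Btc*), and TGACGTCA was found in *Areg* alone of these. A match describes the letters and shows no binding.

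Receptor activity also depends on release of the ligands from the membrane, on signalling proteins and on feedback. The 5 lists below were read by counts beside all genes tested, whose median log2 difference between the labels was 0.11, or 0.03 without replicate 3. limma called 0 genes of any list.

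Of the 7 genes of ligand shedding, 6 were tested, with a median log2 difference of -0.27 (-0.13 without replicate 3) and none of the 6 with label groups that did not overlap, beside 23.3% of all genes tested in either direction, so nothing is read from none of 6. Without replicate 3, *Adam10* went from -0.36 to 0.13 and *Timp3* from -0.67 to -0.29. *Adam17*, the sheddase of amphiregulin and TGFA, was at 10.8, 15.4 and 8.88 FPKM under the wild type label and at 10.4 and 10.8 FPKM under the *Brca1* knockout label. *Adam10*, which releases EGF and betacellulin, was at 19.8, 20.4 and 57.9 FPKM and at 23.8 and 20.6 FPKM, apart from the others in replicate 3. So was *Adam15*, which encodes another ADAM protease, at 9.26, 11.6 and 21.1 FPKM and at 11.4 and 9.44 FPKM. *Timp3*, an inhibitor of ADAM17, had the largest SD of the list and was at 1.19, 2.44 and 5.02 FPKM and at 1.50 and 1.02 FPKM. *Rhbdf1*, which encodes a rhomboid-like protein that helps ADAM17 mature, was the most abundant by mean, at 33.9 to 47.5 FPKM, and *Adam12* the least. *Adam12*, not tested, was at 0.141, 0.155 and 0.107 FPKM under the wild type label and at 0 and 0.0354 FPKM under the *Brca1* knockout label, so its groups did not overlap at these low levels.

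All 26 adaptor and effector genes were tested, with a median log2 difference of 0.14. The groups did not overlap for 5 genes above (among them *Sos1*, *Gab1*, *Pik3cb* and *Stat5b*) and 1 below (*Map2k1*), beside the backgrounds of 17.5% and 5.77%. *Stat5b*, a transcription factor downstream of ERBB4 and the prolactin receptor, was at 31.4, 22.1 and 19.4 FPKM under the wild type label and at 36.1 and 33.1 FPKM under the *Brca1* knockout label. *Akt1* was the most abundant by mean, at 42.5 FPKM in replicate 3 and 63.0 to 83.6 FPKM elsewhere. *Grb7*, an adaptor of ERBB2 and ERBB3 whose gene lies near *Erbb2*, varied most, between 18.7 and 41.6 FPKM.

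Of 22 genes of inhibition and turnover, 21 were tested, with a median log2 difference of 0.12 and 3 genes above (*Dusp6*, *Nedd4* and *Wwp1*), no more than the 17.5% of all genes gives. *Dusp6*, the phosphatase that acts on ERK and is itself an ERK target, was at 64.0, 49.6 and 80.8 FPKM under the wild type label and at 117 and 114 FPKM under the *Brca1* knockout label. Both libraries with the knockout label were higher, by 0.85 (SE 0.25) on the log2 scale, with an adjusted p of 0.924 from limma. *Errfi1*, the feedback inhibitor of EGFR and ERBB2, was the most abundant at 296 to 568 FPKM, lowest in replicate 3. *Spry4* was the least abundant by mean, between 0.478 and 1.33 FPKM.

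All 17 early response targets were tested, with a median log2 difference of 0.30 and 1 gene above, fewer than the 17.5% of all genes gives. That gene was *Egr3*, an ERK-induced transcription factor gene, at 15.3, 5.29 and 13.3 FPKM under the wild type label and at 28.6 and 26.6 FPKM under the *Brca1* knockout label, a log2 difference of 1.33 (SE 0.44, adjusted p = 0.924 from limma). *Fos*, the most abundant, was at 409 to 959.5 FPKM with the groups overlapping. *Phlda1* varied most, at 553, 293 and 128 FPKM and at 553 and 539 FPKM. *Etv4*, a target of ERK signalling and the least abundant of the list by mean, was at 4.02 FPKM in replicate 3 and at most 0.696 FPKM elsewhere. It therefore passed the filter on low values only through replicate 3. These transcripts also respond to tissue dissociation, whose part was not tested.

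*Dusp6* and *Egr3* were, like *Erbb4*, above in both libraries with the knockout label, and the same was true of 7 of 8 proliferation genes, beside 17.5% of all genes. *Mki67*, the proliferation marker, was at 9.66, 10.7 and 0.504 FPKM under the wild type label and at 18.3 and 27.2 FPKM under the *Brca1* knockout label. *Areg* was below together with 4 of the 8 mature luminal genes (*Pgr*, *Cited1*, *Tnfsf11* and *Ly6a*), beside 5.77% of all genes. For the rest of that list (*Esr1*, *Prlr*, *Foxa1* and *Wnt4*) the label groups overlapped. Without replicate 3 their log2 differences were 0.24, 0.09, -0.26 and 0.17, in that order. *Pgr* passed the filter on low values only through replicate 3. Without replicate 3, the median log2 difference between the labels went from 1.55 to 0.77 for the proliferation list and from -1.41 to -0.37 for the mature luminal list. *Pgr*, the progesterone receptor gene, was at 0.538, 0.714 and 27.1 FPKM under the wild type label and at 0.111 and 0.198 FPKM under the *Brca1* knockout label. The part of cell composition in the levels of *Erbb4* and *Areg* was not tested.

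**Figure D4:**
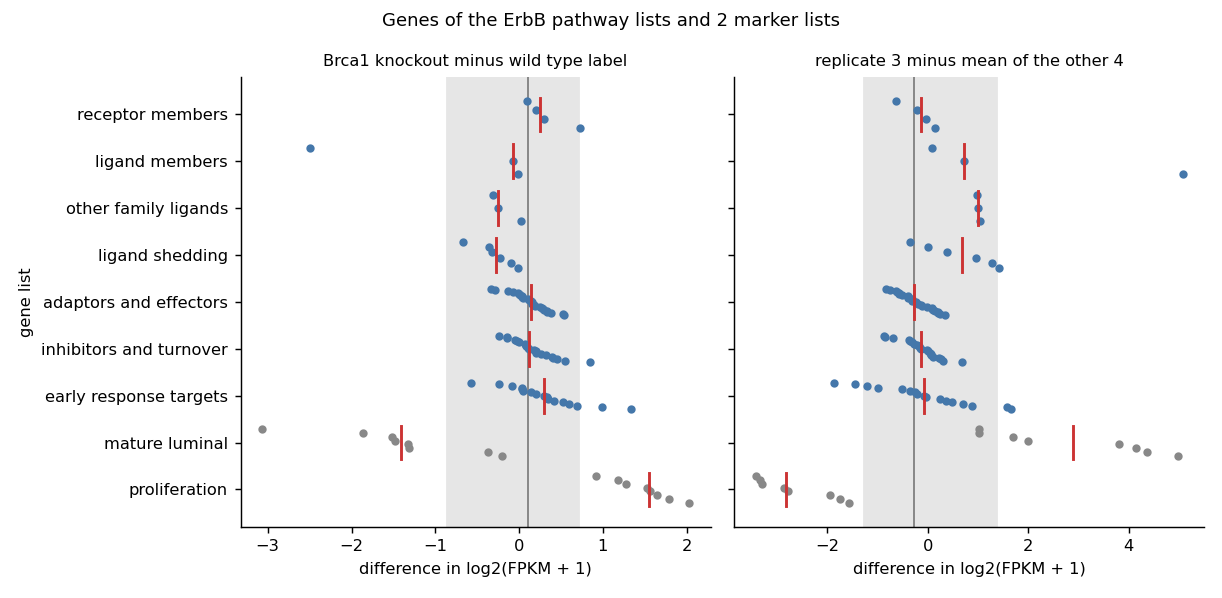
Each dot is a tested gene and each red bar a list median, as the difference in log2(FPKM + 1) between the labels (left) and between replicate 3 and the mean of the other 4 libraries (right). Grey bands span the 5th to 95th percentile of all genes tested and grey lines their medians, 0.11 and -0.27; among the pathway lists (blue) *Areg* lies farthest outside both bands, and the medians of the mature luminal and proliferation lists (grey dots) lie on opposite sides in both panels.

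*Erbb2* sits in a stretch of chromosome 11 that is co-amplified in ERBB2-positive human breast cancers, so its neighbours were read with it. Of 8 neighbouring genes, 5 were tested, with a median log2 difference of 0.07 and none with separate label groups, beside 23.3% of all genes tested, so nothing is read from none of 5. *Mien1*, which overlaps *Erbb2* by 9 bases on the other strand, was the most abundant at 77.5, 50.7 and 77.1 FPKM under the wild type label and at 70.6 and 48.9 FPKM under the *Brca1* knockout label. *Pnmt* varied most, between 0.0442 and 9.79 FPKM, and *Ikzf3* and *Tcap* were listed at 0 in some library.

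Dixon's ratio, the gap between the extreme library and its nearest neighbour divided by the whole range, was used to ask whether 1 library lay apart. Over the 5 libraries, 13.0% of all genes tested had such a library, and replicate 3 was apart as the highest for 3.16% and as the lowest for 7.39%. Of the 10 ErbB genes, 2 had one, *Areg* with replicate 3 highest and *Ereg* with replicate 1 highest. *Ereg* lay under the filter, so of the 7 tested only *Areg* compares with these shares, and 1 gene of 7 is not read as a result. No receptor had one in the values as deposited, while *Egfr* had one under median-of-ratios scaling and quantile normalization. *Areg* passed narrowly, with a ratio of 0.714 against the critical value of 0.71, because replicates 1, 2, 4 and 5 also differed among themselves, with an SD of 0.73 on the log2 scale.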

How the data were processed

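RNA was sequenced from 5 libraries of sorted luminal cells, 3 labelled wild type and 2 labelled *Brca1* knockout. The authors prepared libraries with a kit that does not mark strand. The submitters' processing notes name Trimmomatic 0.35, TopHat2 2.0.13 and Cufflinks 2.2.1 with the mm10 genome, while the paper gives another TopHat version. The gene annotation is not given in the sources used here. The deposited values are FPKM, with no counts, in a table of 24346 rows. In 27 rows a spreadsheet had turned the gene name into a date, and these were left out. No column lacked a sample (0 columns).

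Values were analysed as log2(FPKM + 1). The labels were compared with limma 3.58.1 in R 4.3.3 (lmFit, then eBayes, trend on) for the 11481 genes whose mean was 1 FPKM or more, two-sided, with Benjamini-Hochberg adjustment over all of them and a threshold of 0.05. Exact permutation tests (two-sided) served single values and cannot go below 0.2 with 3 libraries against 2. Levels of neighbouring genes were compared by exact sign-flip tests. Steps in low FPKM multiplied by transcript length gave relative depth. The share within 0.15 of a whole multiple was 55.9% to 59.9%, and chance gives 30%, so no counts were recovered, and fragment numbers are estimates that cover counting error only. Scripts were tested on simulated data.

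Candidates for naming were the 10 ErbB genes, *Brca1*, and of each pathway or marker list the genes that pass the test, otherwise the highest, the lowest and the most variable, of which only some, chosen after their values were seen, are named. Genes whose label groups did not overlap, some genes apart in replicate 3, *Adam17*, *Epcam*, *Lalba*, *Btn1a1* and the neighbours of *Areg* were named after their values were seen. For an ErbB gene with an SD of at least 1, the 3 most alike genes were named. The ErbB genes and the lists were chosen with earlier results of these data known. Coordinates are those of GENCODE M21 (GRCm38, mm10) and promoters are from RefSeq. Alternatives were a pseudocount of 0.1, no filter or a mean of at least 5 FPKM, median-of-ratios scaling, quantile normalization, rescaling without the 10 most abundant genes, no trend, the median in place of the mean, and each replicate left out. The scalings of the count of genes with a library apart and the list medians without replicate 3 were added after seeing the data. A gene of the adaptor and effector list is not reported here by name.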

Additional observations from a re-analysis of the deposited data

Results flagged for a closer look

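Over the 5 libraries taken as 1 group, 84 values were looked at with Dixon's ratio, 63 genes that the text names and 21 list medians, and 18 genes and 3 list medians had a library farther from the others than the 95% critical value of 0.71 allows. Chance marks about 5% of such groups, while 13.0% of all genes tested had such a library in these data. Some of the genes looked at were named because they resemble *Areg* or mark cell types. *Areg* was marked by replicate 3, at 229 FPKM. *Ereg* was marked by replicate 1, at 0.229 FPKM, or about 5.93 estimated fragments. *Brca1* was marked by replicate 3, the lowest library, at 0.234 FPKM. Replicate 3 also marked, as the highest, *Krt8* at 3653 FPKM, *Prlr* at 148 FPKM, *Pgr* at 27.1 FPKM, *Lalba* at 599 FPKM and *Cxcl15* at 89.2 FPKM. It did so for the genes most like *Areg*, with *Fgg* at 43.6 FPKM, *Gipc2* at 35.5 FPKM and *Cd200* at 72.9 FPKM. Of the pathway genes, *Adam10* was marked at 57.9 FPKM, *Adam15* at 21.1 FPKM and *Etv4* at 4.02 FPKM, all highest in replicate 3, *Pik3cb* at 6.72 FPKM, lowest in replicate 3, and *Rhbdf1* at 33.9 FPKM, lowest in replicate 4. Of the neighbours of *Erbb2*, *Ikzf3* at 0.978 FPKM and *Tcap* at 0.0814 FPKM were highest in replicate 3. Both levels were low, with *Ikzf3* at 0 in replicates 1, 4 and 5 and *Tcap* at 0 in replicates 1, 2, 4 and 5. The median of the alveolar and milk list was marked by replicate 3, the lowest library, at 9.23 in log2(FPKM + 1). The adipocyte list was marked by replicate 3, the highest, at 0.03, a level near 0 in every library. The erythrocyte list was marked by replicate 3, the lowest, at 0.63.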

How the results depend on the processing

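The number of genes called by limma was 0 under every setting that kept all 5 libraries, and ranged from 0 to 14 with 1 replicate left out (2 without replicate 1, 14 without replicate 4 and 4 without replicate 5, where the remaining knockout library is assumed to vary like the others), and none of the called genes was in a list. The number of ErbB genes whose label groups did not overlap was 4, 3 under quantile normalization (*Ereg* no longer counted), and 4 to 7 with 1 replicate left out (7 without replicate 4). The share of all genes tested that did not overlap was 23.3%, 20.9% under quantile normalization and 32.5% to 45.6% with 1 replicate left out (41.9% without replicate 4, where 4 of the 7 tested ErbB genes did not overlap). Of the 10 places in the order of levels, 6 to 10 were kept with 1 replicate left out, 6 of them without replicate 3. The number of ErbB genes with a library apart was 2, and it was 4 under median-of-ratios scaling (*Egfr*, *Tgfa*, *Areg* and *Ereg*), 3 under quantile normalization (*Egfr*, *Areg* and *Ereg*) and 1 without the 10 most abundant genes (*Areg*). The median-of-ratios scaling moved the median difference of replicate 3 over all genes from -0.27 to -0.03. The log2 difference of *Erbb2* between the labels, 0.09, was -0.01 under median-of-ratios scaling and -0.02 under quantile normalization, and -0.07 to 0.25 with 1 replicate left out. Leaving out 1 replicate gave -0.01 to 0.41 for *Erbb3*, -0.07 to 0.05 for *Tgfa* and -0.30 to 0.21 for *Btc*, while *Erbb4* kept its sign (0.69 to 0.79), as did *Areg* (-3.55 to -0.97). In all, 72 of the recomputed differences kept their direction and 9 reversed, and 84 levels moved by less than 1 SD and 6 by more, the latter under the pseudocount of 0.1. No paired analysis was possible because the labels number the libraries 1 to 5 and the groups share no number. *Ereg*, *Egf*, *Nrg1*, *Nrg2* and *Nrg3* lay under the filter. Depth limits *Ereg*, which rests on few estimated fragments. For the other low ligands fragments were not estimated, and the part of depth was not tested. The 5 libraries allow no permutation p under 0.05.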

Other observations

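Further marker lists are given as medians of log2(FPKM + 1) in replicates 1, 2, 3, 4 and 5, in that order. The luminal list was between 9.75 and 10.55 in all 5. The luminal progenitor list was at 6.17, 6.36, 6.01, 6.50 and 5.91 and the basal list at 1.38, 1.64, 0.50, 0.57 and 0.36. The endothelial list was at 0.21, 1.24, 1.46, 0.06 and 0.02, with *Kdr*, *Tie1* and *Emcn* at 0 in some library. The pericyte list was at 0.22, 0.84, 0.40, 0.36 and 0.23 and the Schwann cell list at 0.34, 0.40, 0.31, 0.43 and 0.29.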
